A study of Mus musculus with 8 samples.

Results

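The 8 genes described here act in sensing sterols, in taking up low-density lipoprotein (LDL) and in moving the cholesterol it delivers. They were chosen by name from the deposited table of read counts: Srebf2, Scap, Insig1, Insig2, Mylip, Npc1, Npc2 and Stard4. All 8 were among the 56748 genes of the table, and all 8 were among the 14279 genes with enough reads to be tested. The study asked how the stiffness of the matrix acts on primary mouse hepatocytes, and whether the transcriptional coactivators YAP and TAZ are needed for the response. RNA sequencing was done on 8 libraries in 4 groups of 2. Hepatocytes were cultured for 24 h on collagen-coated polyacrylamide hydrogels of 1 kPa (soft) or 20 kPa (stiff).

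All mice carried floxed alleles of both genes (Yap fl/fl; Taz fl/fl) on a C57BL/6J background and were 7 to 8 weeks old at injection. The study's methods also list a Cre-dependent tdTomato reporter at ROSA26 in this line. The knockout groups (Yap/Taz HepKO) came from mice given the virus AAV8-TBG-Cre, in which the hepatocyte-specific TBG promoter drives Cre. The wild-type (WT) groups came from mice with the same floxed alleles given AAV8-TBG-Null, which carries no Cre. Hepatocytes were isolated 10 days after the virus. Floxed alleles and a virus were thus shared by all 4 groups, and WT here means floxed and not recombined by Cre. The labels do not state whether the 2 libraries of a group came from separate mice or cultures, so the p-values measure only the spread between libraries, which may be technical. The study's methods name male mice, and the labels and the series description give different sexes. Every library held Xist reads (4818 to 8443) and no Ddx3y reads, the pattern of female and not of male cells.

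Total counts ranged from 18324083 to 26442310 per library, and 3 reads corresponded to 0.116 to 0.167 CPM (reads scaled to the TMM-adjusted library total). Yap1 held 606 to 747 reads in the knockout libraries and 1720 to 2913 in the WT libraries, and Wwtr1, the gene of TAZ, held 277 to 410 and 748 to 1325. The knockout libraries were therefore below every WT library for both targeted genes. Albumin alone held 54501 to 87361 CPM, so the libraries carried the defining marker of hepatocytes. The summed level of 10 Kupffer cell and macrophage markers was 90.8 to 95.8 CPM in WT soft, 63.1 to 69.7 in WT stiff, 132 to 133 in knockout soft and 134 to 135 in knockout stiff libraries.

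Cells read their cholesterol content at the membrane of the endoplasmic reticulum (ER). The escort protein SCAP carries the precursor of the transcription factor SREBP2 to the Golgi for cleavage when sterols are low, and INSIG1 and INSIG2 hold SCAP back in the ER when sterols are high. Active SREBP2 raises genes of cholesterol uptake and synthesis, and INSIG1 is itself one of its targets. MYLIP (also called IDOL), a ubiquitin ligase and a target of the liver X receptors (LXRs), lowers the uptake of LDL. NPC2 and NPC1 pass LDL-derived cholesterol out of the lysosome, and STARD4 carries sterol through the cytosol. Hepatocytes clear most LDL from blood and use these steps to balance uptake against synthesis.

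Upstream windows of 250 bases that end at an annotated transcription start were available from RefSeq (GRCm38.p6) for 6 of the 8 genes, 9 windows in all. Those of 4 genes are shown because the sterol response is known to act through promoter elements and because the stiffness differences of these genes in WT had different signs. Both strands were searched for the sterol response element core TCACCCCA and for a longer form of it, TCACNCCAC, which overlaps the core in its letters. A search was also made for the E-box, spelled CACGTG, to which SREBPs and other factors can bind. The letters GGAATG stand for the motif of TEAD factors, the partners of YAP and TAZ. Matches to these 4 are in capitals below. The promoter elements CCAAT and, for the GC box, GGGCGG were searched as well and are not capitalised. The windows are chr15:82147019-82147268 (plus strand) for Srebf2, chr5:28071162-28071411 (plus strand) for Insig1, chr12:84773113-84773362 (minus strand) for Npc2 and chr1:121327679-121327928 (minus strand), the most downstream of 3 windows, for Insig2.
Srebf2: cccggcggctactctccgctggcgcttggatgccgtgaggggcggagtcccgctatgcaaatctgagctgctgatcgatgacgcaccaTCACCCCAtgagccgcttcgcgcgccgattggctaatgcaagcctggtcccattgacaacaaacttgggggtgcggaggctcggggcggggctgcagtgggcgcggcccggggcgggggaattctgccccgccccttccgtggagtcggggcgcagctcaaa
Insig1: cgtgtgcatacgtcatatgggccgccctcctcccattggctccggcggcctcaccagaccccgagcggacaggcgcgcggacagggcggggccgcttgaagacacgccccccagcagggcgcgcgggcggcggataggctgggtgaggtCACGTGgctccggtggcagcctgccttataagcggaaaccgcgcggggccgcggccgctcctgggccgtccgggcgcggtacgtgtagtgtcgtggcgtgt
Npc2: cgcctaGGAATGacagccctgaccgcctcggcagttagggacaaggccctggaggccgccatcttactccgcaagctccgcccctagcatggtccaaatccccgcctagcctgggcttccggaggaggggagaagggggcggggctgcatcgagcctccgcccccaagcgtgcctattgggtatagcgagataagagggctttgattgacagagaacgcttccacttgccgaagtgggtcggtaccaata
Insig2: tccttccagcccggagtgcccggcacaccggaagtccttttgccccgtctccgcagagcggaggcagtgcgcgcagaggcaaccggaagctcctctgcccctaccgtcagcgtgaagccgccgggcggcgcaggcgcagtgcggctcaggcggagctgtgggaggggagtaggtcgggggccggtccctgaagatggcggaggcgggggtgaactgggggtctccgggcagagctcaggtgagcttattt
Among the 9 windows the core was found only in that of Srebf2, 162 bases before the start, and 1.342% of all 32851 windows of this length held it. The longer form was in none of the 9 and in 1.053% of all windows. The E-box was found in the window of Insig1, 101 bases before the start, and in 1 of the Scap windows, 40 bases before the start, against 6.021% of all windows. The TEAD letters were found in the Npc2 window, 244 bases before the start, against 12.64% of all windows. The CCAAT and GC boxes are common, in 33.85% and 32.74% of all windows. These matches describe letters in short windows and were not tested as binding sites.

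Levels were compared between genes only per length, as CPM divided by the gene length in kilobases from the deposited table (RPKM). Averaged over the 8 libraries, Insig2 (75.0 RPKM) lay at the 95.4th percentile of the tested genes, Insig1 (35.0) at the 89.9th and Mylip (0.517) at the 17.3rd, and the other 5 lay between the 73.5th and the 85.0th. In WT soft libraries the order was Insig2 (80.7 RPKM), Insig1 (45.6), Npc2 (22.0), Srebf2 (18.2), Scap (16.7), Npc1 (12.7), Stard4 (12.2) and Mylip (0.506). Npc1 and Stard4 overlapped between libraries there and the other neighbours did not. In WT stiff libraries Insig1 (53.7) came just above Insig2 (50.5), and no neighbours in the order overlapped. That order of the 2 rests on the deposited gene lengths (3093 bases for Insig1, 3473 for Insig2). In CPM, Insig2 (177 and 174) was above Insig1 (162 and 169) in these libraries. Other lengths could change the order of other close genes as well. In the knockout libraries Insig2 was first by a wide margin, at 88.2 on soft and 80.4 on stiff, and Insig1 overlapped Npc2 on both hydrogels (20.4 and 19.2 on soft, 20.2 and 18.9 on stiff). Npc1, Scap and Srebf2 lay close together in the knockout, from 16.1 to 17.8 in group means.

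**Figure D1:**
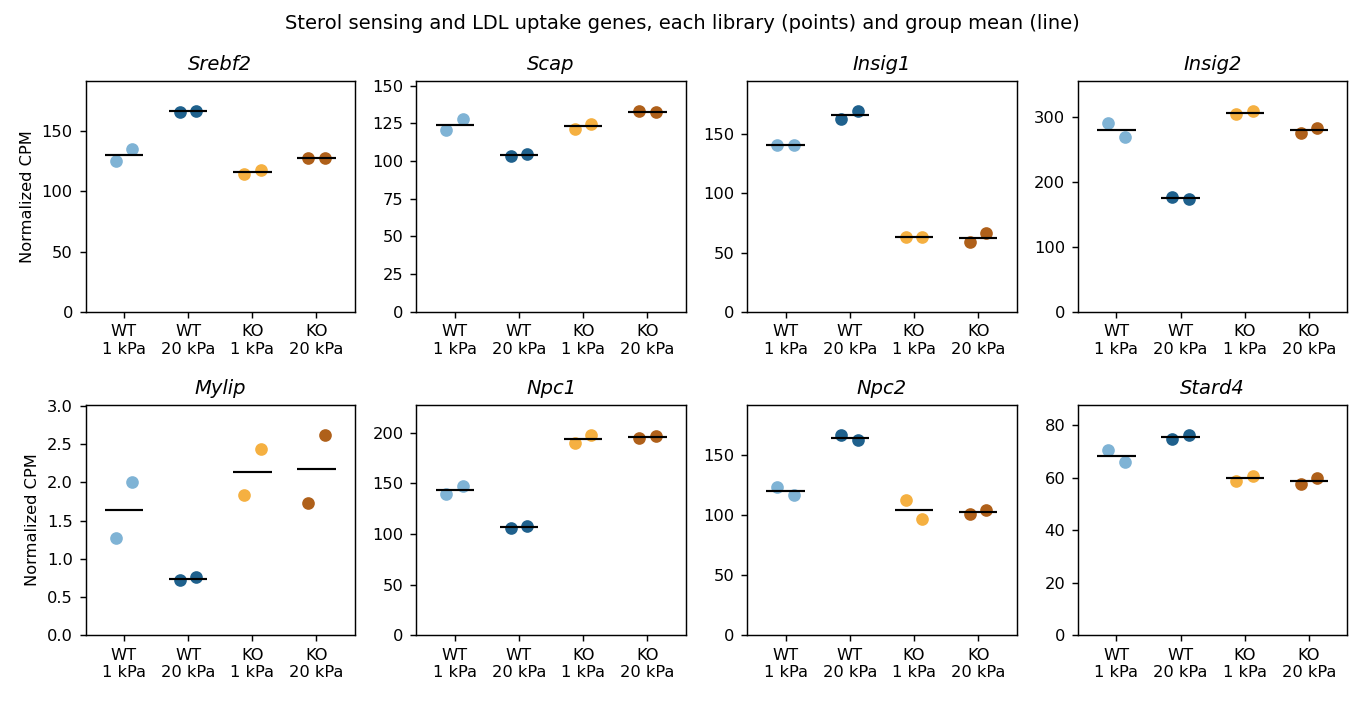
Normalized CPM of the 8 genes in each of the 8 libraries (points) with the group mean (line), by genotype and hydrogel stiffness in kPa, each panel with its own axis from 0. Insig1 separates by genotype on both hydrogels, Insig2 and Npc1 are lowest in the 2 WT stiff libraries, and Npc2 is highest there.

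A gene was called when the edgeR quasi-likelihood test gave a Benjamini-Hochberg adjusted p under 0.05 over all 14279 genes and the absolute log2 fold change was over 0.5, and "rose" and "fell" are used only for called genes. In WT hepatocytes, stiff against soft, Insig2 and Mylip fell and no member rose. That is 2 of 8 lower, where 9.26% of all tested genes were lower, and 0 of 8 higher, where 10.0% were higher. Of the members not called as higher, 4 had a positive difference with an unadjusted p under 0.05, and DESeq2 called 0 higher and 1 lower. Without the fold threshold 7 of the 8 passed the adjusted p, with log2 fold changes between -1.10 and 0.46, so that most of the WT responses were small. The share of all tested genes that passed the adjusted p alone was not counted, so the 7 cannot be set against it.

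In the knockout, stiff against soft, edgeR called 0 of 8 in either direction, where 0.0140% of all genes were higher and 0.00700% lower, and DESeq2 called 0 as well. At an unadjusted p under 0.05 there were 2 members higher (Srebf2, Scap) and 1 lower (Insig2). The test of the difference between genotypes in the stiffness response (the interaction) called 1 of 8 in the positive direction, Insig2, against 8.64% of all genes, and 0 of 8 in the negative direction, against 8.21%. In that negative direction 3 members had an unadjusted p under 0.05 and DESeq2 called 0. Knockout against WT on soft called 1 of 8 lower (Insig1), against 4.65% of all genes, and 0 of 8 higher, against 2.02%, with 2 higher at an unadjusted p under 0.05 and 0 by DESeq2. On stiff, 3 of 8 were higher (Insig2, Mylip, Npc1), against 13.7% of all genes, and 2 of 8 lower (Insig1, Npc2), against 15.0%. The comparisons share libraries, and each group enters 3 of the 5.

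**Figure D2:**
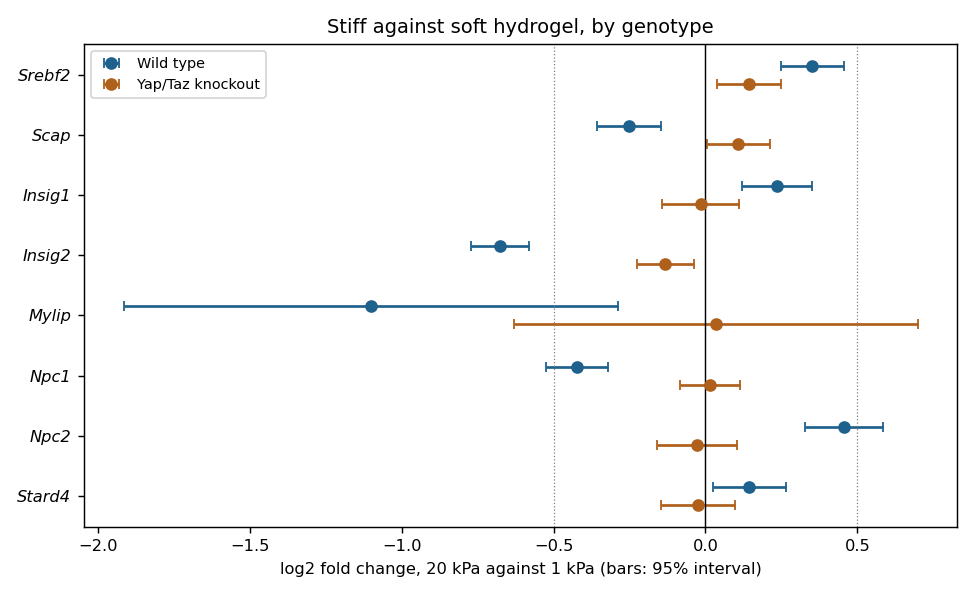
Log2 fold change of each gene, 20 kPa against 1 kPa, in WT (blue) and Yap/Taz knockout (orange) hepatocytes, with 95% intervals from the edgeR fit and dotted lines at the fold threshold. The 8 knockout values lie between -0.13 and 0.14, whereas the WT values run from -1.10 (Mylip) to 0.46 (Npc2).

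Srebf2 (ENSMUSG00000022463, chromosome 15, 82031382 to 82089580, plus strand) encodes SREBP2. Its level was 126 and 136 CPM in the WT soft libraries, 166 and 167 in WT stiff, 114 and 118 in knockout soft and 128 and 128 in knockout stiff. The 2 WT stiff libraries were the highest of the 8, and no 2 groups compared here overlapped. Stiff exceeded soft by 0.35 ± 0.050 (log2, SE; adjusted p = 1.46e-05) in WT and by 0.14 ± 0.050 (adjusted p = 0.597) in the knockout, and the interaction was -0.21 ± 0.071 (adjusted p = 0.0330). The knockout was lower than WT by -0.17 on soft (adjusted p = 0.0232) and by -0.38 on stiff (adjusted p = 4.17e-06), all under the fold threshold. Mir33, the microRNA annotated within Srebf2, held 0 reads in every library. Paired-end RNA libraries of this kind do not measure mature microRNAs, so the 0 does not show whether it is present.

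Scap (ENSMUSG00000032485, chromosome 9, 110162356 to 110214018, plus strand) encodes the escort protein. The libraries held 120.3 and 128 CPM in WT soft, 103 and 105 in WT stiff, 122 and 125 in knockout soft and 133 and 132 in knockout stiff. The WT stiff libraries were the lowest of the 8, the reverse of Srebf2, and the 2 soft groups overlapped. The WT difference was -0.25 ± 0.050 (adjusted p = 0.000492) and the interaction 0.36 ± 0.070 (adjusted p = 0.000678). Knockout against WT was 0.35 on stiff (adjusted p = 1.10e-05) and -0.011 on soft, with a 95% interval from -0.11 to 0.093. None of these passed the fold threshold, and the soft value changed sign with the scaling (0.0029 with upper quartile scaling).

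Insig1 (ENSMUSG00000045294, chromosome 5, 28276361 to 28283660, plus strand) is the SREBP2-responsive retention factor. It held 141 and 141 CPM in WT soft, 162 and 169 in WT stiff, 63.1 and 63.2 in knockout soft and 58.6 and 66.4 in knockout stiff libraries. Every knockout library lay under 0.5 times the lowest WT library, and the knockout soft and stiff libraries overlapped. In the knockout Insig1 fell by 1.16 ± 0.057 on soft (fold 0.448, adjusted p = 6.00e-11). On stiff it fell by 1.41 ± 0.058 (fold 0.376, adjusted p = 3.90e-13), and both were the largest falls among the 8 genes on that hydrogel. The stiffness response was 0.24 ± 0.055 in WT (adjusted p = 0.00203) and -0.016 ± 0.060 in the knockout (95% interval -0.14 to 0.11), under the fold threshold in both, with an interaction of -0.25 (adjusted p = 0.0260). Of the 64-base windows of its longest annotated transcript, 1.44% also occur in transcripts of other genes, and window shares given below for other genes were counted likewise.

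Insig2 (ENSMUSG00000003721, chromosome 1, 121232082 to 121260318, minus strand) is the retention factor whose liver transcript insulin is known to lower. Its libraries held 291 and 269 CPM in WT soft, 177 and 174 in WT stiff, 304 and 309 in knockout soft and 276 and 283 in knockout stiff. The WT stiff libraries stood below the other 6, while WT soft and knockout stiff lay in the same range. Insig2 fell by 0.68 ± 0.045 (log2) on stiff in WT (fold 0.626, adjusted p = 8.90e-10), and the knockout difference was -0.13 ± 0.044 (adjusted p = 0.597, 95% interval -0.23 to -0.038). The interaction was 0.54 ± 0.063 (adjusted p = 2.79e-06), and without WT soft replicate 1 it was 0.47, under the fold threshold. On stiff it rose with the knockout by 0.67 ± 0.045 (fold 1.59, adjusted p = 5.35e-10), whereas on soft the difference was 0.13 (adjusted p = 0.0557).

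Of the 2 INSIG genes, Insig1 was called for genotype on both hydrogels, and Insig2 for stiffness in WT and for genotype on stiff. The ratio of Insig1 to Insig2 in RPKM was 0.566 ± 0.031 (SD, n = 2) in WT soft, 1.06 ± 0.044 in WT stiff, 0.232 ± 0.0026 in knockout soft and 0.251 ± 0.017 in knockout stiff libraries. The summed level of both genes ran from 101 RPKM (knockout stiff) to 126 RPKM (WT soft), so the mix of the 2 differed more than their sum. The ratio is a description and was not tested. Its level, and whether it lies above or below 1, rests on the deposited gene lengths, while its relative differences between groups do not.

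**Figure D3:**
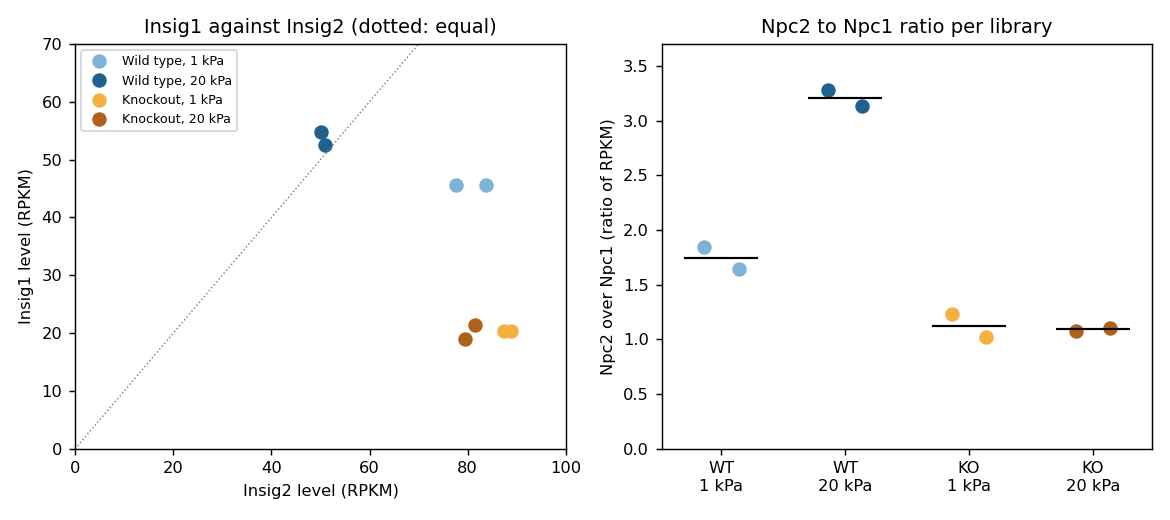
Left, level of Insig1 against Insig2 in RPKM in each of the 8 libraries, coloured by group, with a dotted line where both are equal, and right, the ratio of Npc2 to Npc1 RPKM per library (points) with the group mean (line). The WT stiff libraries lie nearest the line of equal INSIG levels and have the highest Npc2 to Npc1 ratio (3.21), and the knockout groups have the lowest ratios on both measures.

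Mylip (ENSMUSG00000038175, chromosome 13, 45543218 to 45565498, plus strand) was the least abundant member, with 15 to 53 reads per library. It held 33 and 36 reads (1.27 and 2.00 CPM) in WT soft, 15 and 15 (0.723 and 0.762 CPM) in WT stiff, 47 and 49 (1.83 and 2.44 CPM) in knockout soft and 37 and 53 (1.73 and 2.62 CPM) in knockout stiff. The WT stiff libraries were below all others, and the 2 knockout groups overlapped, as did both soft groups. On stiff in WT Mylip fell by 1.10 ± 0.39 (adjusted p = 0.0295), a call lost with DESeq2 (adjusted p = 0.0672) and without WT soft replicate 2 (-0.77, adjusted p = 0.213), WT stiff replicate 1 (adjusted p = 0.120) or WT stiff replicate 2 (adjusted p = 0.0968). On stiff it rose in the knockout by 1.54 ± 0.37 (fold 2.91, adjusted p = 0.00207), and on soft the difference was 0.40 ± 0.33 (adjusted p = 0.449). The interaction of 1.14 ± 0.50 did not pass (adjusted p = 0.100), with a 95% interval from 0.083 to 2.19.

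Lipa, the lysosomal acid lipase that frees cholesterol from the esters in LDL, held 279 and 275 CPM in WT soft, 159.9 and 154 in WT stiff, 337 and 334 in knockout soft and 322 and 335 in knockout stiff libraries. The WT stiff libraries were the lowest of the 8, and the knockout groups overlapped. Lipa fell by 0.82 ± 0.042 on stiff in WT (adjusted p = 2.44e-11), rose by 1.06 ± 0.042 in the knockout on stiff (adjusted p = 2.71e-13) and had an interaction of 0.79 (adjusted p = 1.01e-08). Sort1, a sorting receptor of the Golgi and endosomes, fell by 1.28 on stiff in WT and rose by 1.65 with the knockout on stiff, and its interaction was called (adjusted p = 0.00192). Usp2, a deubiquitinase known to act on MYLIP, fell by 1.05 ± 0.34 with the knockout on stiff (adjusted p = 0.0151). It held only 21 to 48 reads per library, so its depth is as limited as that of Mylip. Of 15 tested genes in a list of LDL uptake and receptor recycling, 3 fell on stiff in WT and edgeR called 0 higher (3 at an unadjusted p under 0.05, 0 by DESeq2), and 4 rose and 1 fell in the knockout on stiff. In the knockout on soft edgeR and DESeq2 called 0 in either direction, with 5 higher and 1 lower at an unadjusted p under 0.05. The list's median on stiff in WT was 0.055 against -0.0087 for all genes. Of all tested genes, 10.0% rose and 9.26% fell in that comparison, and 13.7% rose and 15.0% fell with the knockout on stiff.

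Npc2 (ENSMUSG00000021242, chromosome 12, 84801336 to 84819926, minus strand) encodes the soluble lysosomal protein that binds cholesterol first. Its libraries held 123 and 116 CPM in WT soft, 167 and 162 in WT stiff, 112 and 96.8 in knockout soft and 101 and 104 in knockout stiff. The WT stiff libraries were the highest, and the knockout groups overlapped. The WT stiffness difference was 0.46 ± 0.061 (adjusted p = 7.35e-06), under the fold threshold, though 0.51 and past it without WT soft replicate 1. In the knockout on stiff Npc2 fell by 0.68 ± 0.061 (fold 0.625, adjusted p = 3.26e-08), and on soft the difference was -0.19 (adjusted p = 0.0350). The interaction of -0.48 ± 0.087 (adjusted p = 0.000319) was under the fold threshold. It passed that threshold over all libraries with no filter on low counts. It also passed it without WT soft replicate 1 (-0.54), WT stiff replicate 2 (-0.51), knockout soft replicate 2 (-0.59) or knockout stiff replicate 2 (-0.52).

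Npc1 (ENSMUSG00000024413, chromosome 18, minus strand) encodes the membrane protein that receives cholesterol from NPC2. It held 139 and 147 CPM in WT soft, 106 and 108 in WT stiff, 189 and 198 in knockout soft and 195 and 197 in knockout stiff libraries. The knockout libraries were above every WT library and the WT stiff libraries were the lowest, opposite to Npc2. Npc1 rose with the knockout on stiff by 0.87 ± 0.048 (fold 1.83, adjusted p = 3.15e-11). The difference was 0.44 ± 0.047 on soft (adjusted p = 1.91e-06) and -0.42 ± 0.049 for stiffness in WT (adjusted p = 1.26e-06), both under the fold threshold. The interaction was 0.44 ± 0.068 (adjusted p = 7.04e-05), while stiffness in the knockout gave 0.015 (95% interval -0.083 to 0.11). Npc1 overlaps Rmc1 on the other strand, with 348 to 625 reads per library, and whether the counting used strand is not given in the sources used here, so its reads are uncertain to that extent. Rmc1 itself was 0.44 higher in the knockout on stiff (adjusted p = 0.000697).

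The ratio of Npc2 to Npc1 in RPKM was 1.74 ± 0.14 (SD, n = 2) in WT soft, 3.21 ± 0.10 in WT stiff, 1.13 ± 0.15 in knockout soft and 1.09 ± 0.018 in knockout stiff. It was highest in WT stiff, and the 2 knockout groups overlapped. The level of this ratio also rests on the deposited gene lengths, while its relative differences between groups do not. Stard4 (ENSMUSG00000024378, chromosome 18, minus strand), the sterol carrier of the cytosol, held 70.4 and 65.9 CPM in WT soft, 74.6 and 76.3 in WT stiff, 58.7 and 60.6 in knockout soft and 57.6 and 59.7 in knockout stiff. It was called in no comparison. Its largest difference was -0.36 ± 0.058 in the knockout on stiff (adjusted p = 3.67e-05), and its WT stiffness difference of 0.14 missed the adjusted p (0.0507).

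**Figure D4:**
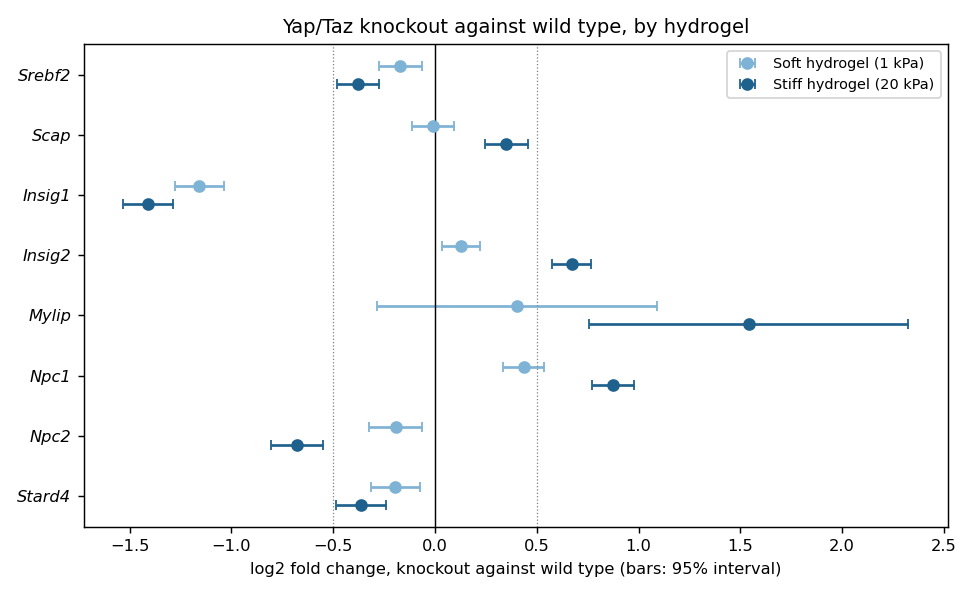
Log2 fold change of each gene, Yap/Taz knockout against WT, on soft (light blue) and stiff (dark blue) hydrogel, with 95% intervals from the edgeR fit and dotted lines at the fold threshold. Insig1 is lowest on both hydrogels (-1.16 and -1.41), and on stiff Insig2 (0.67), Npc1 (0.87) and Mylip (1.54) lie above the upper line and Npc2 (-0.68) below the lower one.

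The 6 lists of related genes were counted beside the members, as a description with no test of a list. Of all tested genes, 10.0% rose and 9.26% fell on stiff in WT. With the knockout 13.7% rose and 15.0% fell on stiff, and 2.02% rose and 4.65% fell on soft. The interaction called 8.64% of all tested genes as positive and 8.21% as negative. Of 17 genes of SREBP processing and sterol-regulated ER degradation, 0 rose and 3 fell on stiff in WT (median -0.15), with 1 positive at an unadjusted p under 0.05. DESeq2 called 0 of the list higher and 2 lower there. Srebf1, the gene of SREBP1, fell by 0.67 in WT on stiff and fell by 0.55 with the knockout on soft, though it overlaps Rai1 on the other strand. With the knockout on stiff Srebf1 was 0.24 higher (adjusted p = 0.00130), under the fold threshold. Its interaction of 0.79 was called (adjusted p = 3.63e-07). Rnf145, an ER ubiquitin ligase, fell by 0.62 on stiff in WT. In the knockout on stiff 2 of the 17 rose, namely Spring1 (0.98), a factor in SREBP activation, and Paqr3 (0.83), a Golgi anchor of SCAP with 50 reads on average that overlaps Bmp2k. DESeq2 called 1 of the 17 higher there, and edgeR called 0 lower (3 at an unadjusted p under 0.05, 0 by DESeq2).

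Of the 21 SREBP2 target enzymes of cholesterol synthesis 10 rose on stiff in WT and 0 fell (median 0.43; 2 negative at an unadjusted p under 0.05, 0 called by DESeq2), led by Fdps and Hsd17b7, the latter at 1.05. With the knockout 7 fell on soft (median -0.39) and 13 on stiff (median -0.75), and edgeR and DESeq2 called 0 higher on either, with 0 positive at an unadjusted p under 0.05. On stiff the largest falls were Fdps (-2.62) and Idi1 (-1.48), both of which share sequence with other genes over 10.3% and 21% of their windows, and on soft Fdps (-1.34) and Mvd (-0.87). The interaction called 9 of the 21 as negative, led by Fdps (-1.27) and Hmgcs1 (-1.02). In the knockout 0 of the 21 were called for stiffness by edgeR or DESeq2, with 3 at an unadjusted p under 0.05.

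Of 18 genes of lysosomal and intracellular sterol transport, 1 rose and 3 fell on stiff in WT (median -0.15), and 3 rose and 1 fell with the knockout on stiff (median 0.24). The rise was Osbpl5 (1.23), a lipid exchanger at ER contacts, which fell by 1.64 with the knockout on stiff. Osbpl1a, the cholesterol sensor ORP1L of late endosomes, fell by 0.83 on stiff in WT and rose by 1.04 with the knockout on stiff, and Gramd1c, an ER sterol transporter, went the same way (-0.55 and 1.10). Of 18 lysosome genes taken as TFEB targets, 1 fell on stiff in WT (Ctsl, -0.58) and 4 rose with the knockout on stiff, including Ctsl (0.92) and Gla (0.68). Of 12 LXR genes and targets, Arl4c rose on stiff in WT (0.92) and 0 fell by edgeR or DESeq2 (7 negative at an unadjusted p under 0.05), and with the knockout on stiff 3 rose and 2 fell, among them Abcg1 (1.10), Nr1h3 (0.61), Plin2 (-0.64) and Arl4c (-0.98). Mylip is itself known as an LXR target, and its value on that contrast was 1.54.

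**Figure D5:**
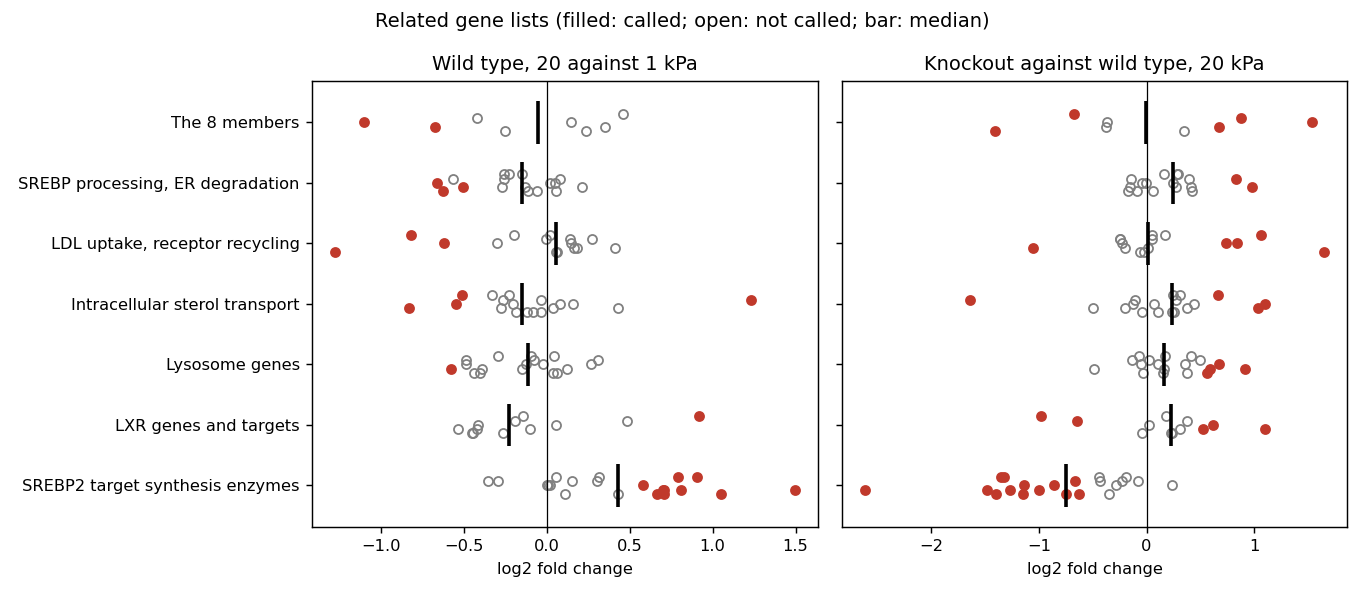
Log2 fold change of each gene of the 8 members and of 6 related lists, for stiff against soft in WT (left) and knockout against WT on stiff (right). Filled points were called, open points were not, and bars mark the medians, of which the synthesis enzymes' lies at 0.43 on the left and -0.75 on the right.

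For each member called in at least 1 comparison, the 3 most similar genes by Pearson correlation of log2 CPM over the 8 libraries were listed among genes with a mean of at least 100 reads, as a description that rests on 4 groups of 2. Nearest to Insig1 were Bhmt (r = 0.999), Ifitm3 (0.998) and Cyp3a44 (0.998), and Bhmt and Cyp3a44 share 10% and 15.3% of windows with other genes. Nearest to Insig2 were Kif21a (0.997), Acbd5 (0.995) and Tmem30b (0.995). Nearest to Npc1 were Cyp1a2 (0.998), Gstm3 (0.998), which shares 24.8% of its windows, and Slc3a2 (0.996). Nearest to Npc2 were Nono (0.995), which shares 20.1%, Ank3 (0.994) and Topbp1 (0.994), and nearest to Mylip were Jade1 (0.990), Nxf1 (0.981) and Ip6k1 (0.978), the last sharing 19%.

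Markers of other liver cells moved with several of these contrasts. Of all tested genes, 10.0% rose and 9.26% fell on stiff in WT. With the knockout 13.7% rose and 15.0% fell on stiff, while 2.02% rose and 4.65% fell on soft. Of 10 Kupffer cell and macrophage markers 6 fell on stiff in WT, and 8 rose with the knockout on stiff. Of 8 endothelial markers 4 fell and 7 rose in the same contrasts, with summed levels of 74.5 to 76.0 CPM in WT soft, 49.3 to 52.5 in WT stiff, 93.5 to 96.1 in knockout soft and 94.1 to 106 in knockout stiff. Of 9 tested stellate cell and fibroblast markers 1 rose and 3 fell on stiff in WT, and 6 rose and 1 fell with the knockout on stiff, and the summed level of all 10 was 37.8 to 38.2, 26.5 to 27.5, 53.7 to 54.9 and 55.0 to 58.1 CPM in the same order of groups. With the knockout on soft 4 Kupffer cell, 2 endothelial and 4 stellate cell markers rose and 0 fell. The interaction called 5, 5 and 3 of these lists as positive, against 8.64% of all tested genes, and 0 as negative, against 8.21%. In that negative direction 1 stellate cell marker had an unadjusted p under 0.05. Lrat, a defining stellate marker, had 0 to 4 reads, whereas other markers of the stellate list held more. Among them were the 3 that fell on stiff in WT, Pdgfrb (13 to 63), Col3a1 (70 to 409) and Dcn (104 to 386). Col1a1 (68 to 139 reads) went the other way. It was the 1 that rose on stiff in WT (0.78) and the 1 that fell with the knockout on stiff (-0.62). These 3 lists were lowest in WT stiff, as were 4 of the members (Scap, Insig2, Mylip and Npc1), whereas the other 4 (Srebf2, Insig1, Npc2 and Stard4) were highest there. How many of all tested genes were lowest or highest in WT stiff was not counted, so this is not shown to be particular to the members.

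The 6 cholangiocyte markers summed to 548 to 584 CPM in WT soft, 599 to 602 in WT stiff, 344 to 348 in knockout soft and 320 to 333 in knockout stiff. Most of that sum was Spp1, with 507 to 542 CPM in WT soft. Krt19, a keratin of bile duct cells, held 1.81 and 2.44 CPM in WT soft, 21.0 and 20.1 in WT stiff, 0.429 and 0.845 in knockout soft and 0.703 and 0.692 in knockout stiff. Of the 4 tested cholangiocyte markers 1 rose on stiff in WT (Krt19, 3.30), and 2 fell with the knockout on each hydrogel, Krt19 (-1.75 on soft, -4.87 on stiff) and Spp1 (-0.77 and -0.90). The interaction of Krt19 was -3.12. Cftr had 0 reads in every library and Krt7 had 0 to 3. Epcam had 6 to 24 and Sox9 682 to 1016 reads, and neither was called in any comparison. The 10 hepatocyte markers summed to 90978 to 91548, 93379 to 94922, 63866 to 64321 and 63699 to 63915 CPM in the same order of groups, of which albumin made up most (81619 to 82227 CPM in WT soft). Single hepatocyte markers went against that sum. On stiff in WT 3 of the 10 fell, namely Cyp2e1 (-1.75), Hnf4a (-0.98) and Tat (-0.72). With the knockout on stiff those 3 rose (Cyp2e1 by 2.79, Hnf4a by 1.17, Tat by 1.02), while Alb (-0.66), Cps1 (-0.68) and Fah (-1.12) fell. In these bulk libraries fewer cells of a type and less RNA per cell cannot be told apart, and the part of the marker lists in the members' results was not tested.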

How the data were processed

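RNA sequencing of 8 libraries (4 groups of 2, grouped by the labels' genotype and hydrogel stiffness) was used. The authors deposited raw counts per gene, made from paired-end reads with HISAT2 2.0.5 and featureCounts. The submitters' notes list mm9. The deposited gene positions overlap those of GRCm38 for none of the 8 members and were not compared with mm9 or any other build. They are therefore printed as deposited, and their build is not established. Whether counting used strand is not given in the sources used here.

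From these counts, edgeR 4.0.16 (filterByExpr, TMM scaling, quasi-likelihood test, 1 fit over all 8 libraries, Benjamini-Hochberg over 14279 genes) was run in R 4.3.3, with an adjusted p of 0.05 and a log2 fold change of 0.5 as thresholds. DESeq2 1.42.0, other scalings and filters, the replicate block and leaving out each library were tried as alternatives. CPM used TMM scaling and RPKM the deposited gene lengths (a separate column of bases per gene). Scripts were tested on simulated data. The members and lists were chosen with earlier results of these data known. Total counts were 18324083 to 26442310, and any floor of 3 reads covers counting error only. The 2 libraries of each group differed by more than sampling noise (chi-square per degree of freedom 2.62 to 5.45). Named genes were all 8 members, up to 2 called rises and 2 called falls per list and comparison, the targeted genes and the 3 genes most similar to each called member. Rmc1, Mir33, Xist, Ddx3y, Alb, Tat, Lrat, Krt7, Cftr, Epcam and Sox9 were named after their values were seen. Promoter windows are from RefSeq. Some genes of the LDL uptake list are not reported here.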

Additional observations from a re-analysis of the deposited data

Results flagged for a closer look

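The stiffness response of Insig2 differed between the genotypes by the interaction term of the edgeR fit over all genes, with a log2 difference of 0.54 (knockout response minus WT response). The response was -0.68 in WT and -0.13 in the knockout. Without WT soft replicate 1 the difference was 0.47 and no longer past the fold threshold. No cause was tested.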

How the results depend on the processing

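Members called on stiff against soft in WT numbered 2 in the report, 1 with DESeq2, 7 with no minimum fold change, 1 when changes had to exceed 1 (log2), and 1 to 3 when a library was left out (3 without WT soft replicate 1, when Npc2 passed). The interaction called 1 member in the report, 2 with no filter on low counts, 6 with no minimum fold change, 0 when changes had to exceed 1, and 1 to 2 when a library was left out (without WT soft replicate 1 the 1 called member was Npc2, at -0.54, and not Insig2, at 0.47). Knockout against WT called 5 rather than 1 on soft with no minimum fold change, and on stiff 8 rather than 5 with no minimum fold change and 2 when changes had to exceed 1. How many of all tested genes passed with no minimum fold change was not counted. Signs turned only for values near 0: Insig1 for stiffness in the knockout was 0.068 without knockout stiff replicate 1, Mylip was -0.17 and -0.30 without knockout soft replicate 1 or knockout stiff replicate 2, Npc1 was -0.021 and -0.00019 without the same libraries, and Npc2 was 0.079 without knockout soft replicate 1. Scap for the knockout on soft was 0.0029 with upper quartile scaling, 0.044 by library size only, 0.033 without WT soft replicate 2 and 0.0063 without knockout soft replicate 1. Over all single-library omissions these values ran from -0.12 to 0.068 (Insig1), -0.30 to 0.30 (Mylip), -0.021 to 0.042 (Npc1), -0.13 to 0.079 (Npc2) and -0.053 to 0.033 (Scap). The cause was not tested. Whether the replicate numbers pair the libraries is not known. Deviations of replicate 1 from its group mean correlated little between groups over all tested genes (-0.10 to 0.042). Genes with few reads count equally in these correlations, so they cannot exclude a pairing that affects some genes. With the replicate block the members called numbered 2, 0, 1, 1 and 5 in the order WT stiffness, knockout stiffness, interaction, soft and stiff. Depth limits Mylip, with 15 to 53 reads, more than the other members.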
